A study of Mus musculus with 10 samples.

Results

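The cytotoxic granule genes were 10 genes whose products are stored in, or act with, the killing granules of NK cells and cytotoxic T cells. They comprised 4 granzymes (Gzma, Gzmb, Gzmk and Gzmm), the pore former Prf1, the granule proteins Nkg7, Ctsw and Srgn, and the chemokines Ccl5 and Ccl4. The members were chosen by name, and all 10 were found among the 33585 genes listed for each library. Bulk RNA-seq was performed on tumor-draining lymph nodes (TDLN) of mice whose tumors had received microwave ablation (MWA), a heat ablation of the tumor, with or without 2-deoxy-D-glucose (2DG), which blocks glycolysis. There were 5 libraries of the MWA group and 5 of the MWA+2DG group, so the question asked here was whether glycolysis inhibition after ablation altered granule gene expression in the node.

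All animals were female BALB/c mice, 6 weeks old, with the 4T1 mammary carcinoma line implanted in a mammary fat pad. Tumors of both groups were ablated at 5 W on day 10 and the nodes were taken on day 15. From day 10 the MWA+2DG mice were injected with 2DG at 500 mg/kg every 2 days. The group labelled MWA received PBS instead, according to the methods of the study. No group without ablation was analysed here, so none of the values show what ablation itself did. Each library was made from a whole node, in which fewer cells of a type and less RNA per cell cannot be told apart.

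In killer lymphocytes, perforin opens the membrane of the target cell and granzymes, which are serine proteases, enter and cleave proteins that trigger its death. The proteoglycan serglycin holds the granule contents together, and granules are released where killer and target meet. Resting naive T cells carry little granzyme mRNA, whereas NK cells carry granule transcripts before any encounter with a target.

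No member passed the test for a difference between MWA+2DG and MWA, whereas several differed greatly between libraries of the same group. Between the lowest and the highest of all 10 libraries, taken over both groups, Gzmb varied 25.2-fold, Ccl4 18.1-fold, Gzma 15.5-fold and Gzmk 8.64-fold. Prf1 and Nkg7 varied 2.79-fold and 2.01-fold. Gzmm, Ccl5, Ctsw and Srgn varied by between 1.44-fold and 1.92-fold. The libraries with high Gzma and Gzmb were found in both groups and were replicates 4 and 5 of each.

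The libraries fell into 2 sets that did not follow treatment. On the first principal component, which held 36.4% of the variance, replicates 1 and 2 of both groups lay at 18.9 to 23.4 and replicates 3 to 5 at -33.5 to 1.58. Albumin mRNA (Alb), the defining marker of hepatocytes, was listed at 0 to 0.0486 FPKM in replicates 1 and 2 and at 35.1 to 102 FPKM in replicates 3 to 5. The labels name no batch. The differences of the members are therefore also given within these sets, and the part of hepatocyte transcripts in the results was not tested.

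Of the 10 members, 7 had an entry in the RefSeq promoter table (GRCm38.p6), whereas the submitters' notes name the older build mm9 for the reads, so the positions below belong to the table alone. Ctsw, Ccl5 and Ccl4 had none. The 250 bases before the start are shown for Gzma, Gzmb and Prf1, which varied together across libraries, and for Gzmk, which followed them less closely. Capitals mark a match, on either strand, to the RUNX motif TGTGGT, the T-box motif GGTGTGA or the AP-1 motif TGANTCA. RUNX and T-box factors act in killer lymphocyte development, and AP-1 acts downstream of antigen receptor signaling.
Gzma, chr13:113100982-113101231, minus strand: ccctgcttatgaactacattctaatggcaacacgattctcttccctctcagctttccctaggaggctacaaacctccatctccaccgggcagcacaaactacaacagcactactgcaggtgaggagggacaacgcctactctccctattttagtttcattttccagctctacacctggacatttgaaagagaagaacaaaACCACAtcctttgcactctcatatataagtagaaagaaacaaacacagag
Gzmb, chr14:56262335-56262584, minus strand: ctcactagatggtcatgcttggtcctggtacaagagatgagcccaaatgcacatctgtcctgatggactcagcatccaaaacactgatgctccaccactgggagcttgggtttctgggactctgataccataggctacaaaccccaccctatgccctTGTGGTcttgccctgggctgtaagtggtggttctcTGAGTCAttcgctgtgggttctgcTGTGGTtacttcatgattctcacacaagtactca
Prf1, chr10:61297586-61297835, plus strand: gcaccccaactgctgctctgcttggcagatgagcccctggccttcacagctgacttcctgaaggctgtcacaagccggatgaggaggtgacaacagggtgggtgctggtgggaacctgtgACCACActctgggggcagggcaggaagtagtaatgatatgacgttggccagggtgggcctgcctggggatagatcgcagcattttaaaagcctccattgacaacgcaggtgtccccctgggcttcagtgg
Gzmk, chr13:113180966-113181215, minus strand: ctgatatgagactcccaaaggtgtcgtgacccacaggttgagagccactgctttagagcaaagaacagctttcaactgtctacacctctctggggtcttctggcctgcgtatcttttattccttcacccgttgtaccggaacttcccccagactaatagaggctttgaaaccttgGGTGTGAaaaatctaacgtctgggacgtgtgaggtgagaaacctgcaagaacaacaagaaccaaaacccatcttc

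The Gzmb window held 2 RUNX matches and 1 AP-1 match. Those of Gzma and Prf1 each held 1 RUNX match, whereas the Gzmk window held 1 T-box match. Among all 32851 promoter windows of this length, 14.0% held the RUNX letters, 3.33% the T-box letters and 6.75% the AP-1 letters. The Nkg7 window also held 1 RUNX and 1 T-box match. Gzmm had 2 windows, with 1 RUNX match in the first and 1 T-box match in the second. Srgn also had 2 windows, and its second held 1 RUNX match. RUNX letters thus also occurred in members that varied little. These matches describe the letters only and are not evidence of binding.

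**Figure D1:**
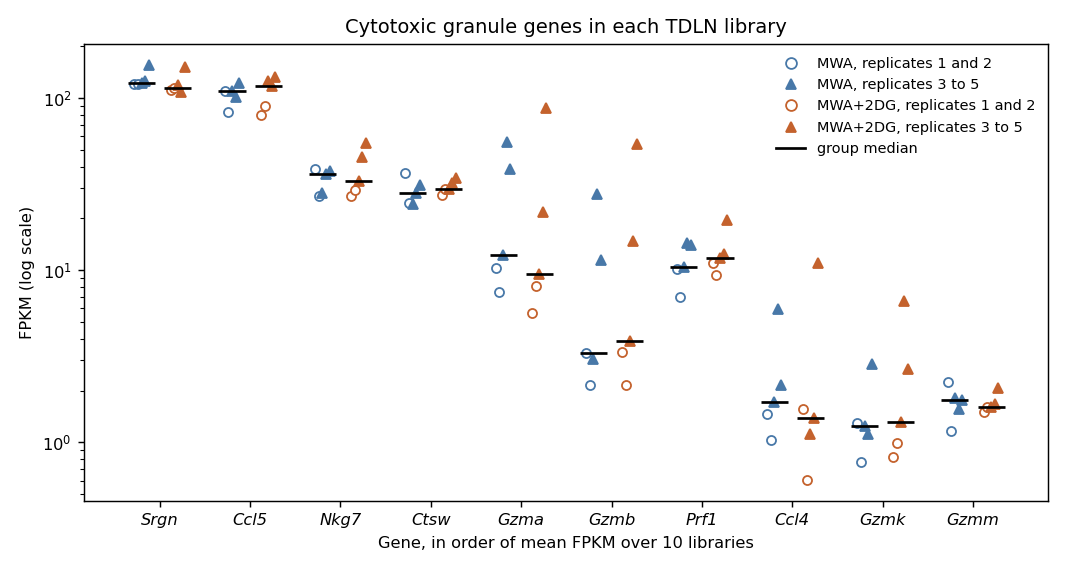
FPKM of the 10 cytotoxic granule genes in each library on a log axis, with MWA in blue and MWA+2DG in orange, open circles for replicates 1 and 2, triangles for replicates 3 to 5 and black bars for group medians. Gzma, Gzmb, Ccl4 and Gzmk spread widely within both groups, whereas Srgn, which ranged from 109 to 156 FPKM, stayed in a narrow band.

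Levels are given as FPKM (fragment counts scaled to transcript length and to the mapped fragments of the library), so that levels can be compared between genes. In order of mean level over the 10 libraries, Srgn was highest at 125 FPKM and was followed by Ccl5 at 107, Nkg7 at 35.8, Ctsw at 29.8, Gzma at 25.7, Gzmb at 12.6, Prf1 at 12.0, Ccl4 at 2.79, Gzmk at 1.97 and Gzmm at 1.70. The order was firm at some steps only. Ccl5 exceeded Nkg7, Gzma exceeded Gzmb and Prf1 exceeded Ccl4 in 10 of 10 libraries. In contrast, Gzmb exceeded Prf1 in only 3 libraries and Gzmk exceeded Gzmm in only 3, since the means of Gzmb and Gzmk were raised by a few libraries.

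Gzma encodes a tryptase-like granzyme. In the MWA libraries, replicates 1 to 5, Gzma was measured at 10.3, 7.45, 12.3, 55.5 and 38.8 FPKM. In the MWA+2DG libraries it was measured at 5.66, 8.11, 9.49, 21.7 and 87.6 FPKM. MWA 4, MWA 5, MWA+2DG 4 and MWA+2DG 5 stood above the other 6 libraries, and the groups overlapped over nearly their whole ranges. The means were 24.9 ± 21.2 and 26.5 ± 34.7 FPKM (SD, n = 5 each).

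Gzmb encodes the granzyme that cleaves after aspartate and activates caspases. It was measured at 3.31, 2.15, 3.06, 27.9 and 11.5 FPKM in MWA and at 3.33, 2.15, 3.88, 14.7 and 54.2 FPKM in MWA+2DG. The same 4 libraries were high, and the highest, MWA+2DG 5, lay 15.0-fold above the median of all libraries. The other 6 libraries were confined to 2.15 to 3.88 FPKM.

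Gzmk, a further tryptase-like granzyme that is known from memory-type CD8+ T cells, had a different pattern. It was measured at 1.29, 0.765, 1.24, 1.11 and 2.84 FPKM in MWA and at 0.821, 0.998, 1.31, 6.61 and 2.68 FPKM in MWA+2DG. MWA+2DG 4 was the highest library, 5.21-fold above the median of all libraries, while MWA 4, which was second in Gzma and Gzmb, lay at 1.11 FPKM and thus among the low libraries. Gzmm, a granzyme of NK cells and innate-like T cells, lay between 1.17 and 2.24 FPKM in MWA and between 1.49 and 2.08 FPKM in MWA+2DG, and MWA 1 was its highest library.

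The 4 granzymes summed to 11.3 to 18.4 FPKM in the 6 low libraries and to 86.0, 54.8, 44.7 and 147 FPKM in MWA 4, MWA 5, MWA+2DG 4 and MWA+2DG 5. In every library Gzma made up the largest share of this sum, between 48.5% and 70.7%. Gzmk made up 14.8% in MWA+2DG 4 but only 1.29% in MWA 4 and 1.83% in MWA+2DG 5. The Gzma share averaged 65.3 ± 3.87% in MWA and 55.9 ± 6.35% in MWA+2DG (SD, n = 5 each), a difference of -9.38 percentage points whose ranges, 60.1% to 70.7% and 48.5% to 63.1%, overlapped. This was 1 of 11 ratios that were computed after the files had been seen, and its two-sided exact permutation p was 0.0159 unadjusted and 0.175 when adjusted over the 11. The difference thus did not pass the correction.

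**Figure D2:**
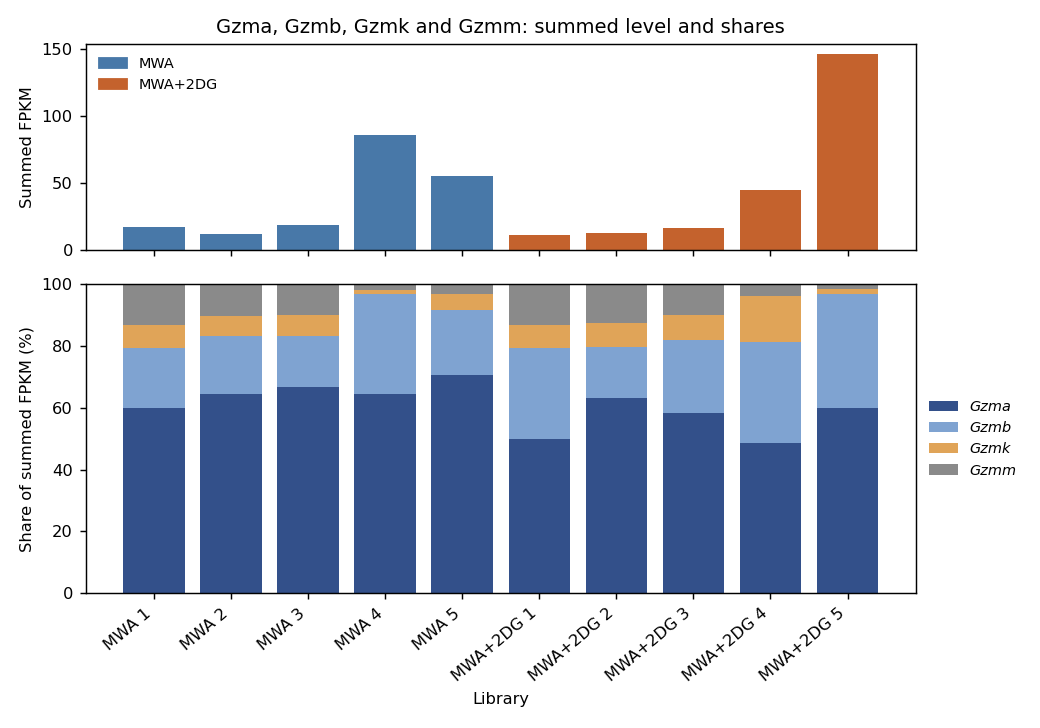
Summed FPKM of Gzma, Gzmb, Gzmk and Gzmm in each library (upper panel, MWA in blue, MWA+2DG in orange) and the share of each granzyme in that sum in percent (lower panel). MWA 4, MWA 5, MWA+2DG 4 and MWA+2DG 5 exceeded 44 FPKM, and the Gzmk share of 14.8% was largest in MWA+2DG 4.

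Prf1 encodes perforin. It was measured at 10.2, 6.99, 10.5, 14.4 and 14.1 FPKM in MWA and at 11.1, 9.43, 11.8, 12.4 and 19.5 FPKM in MWA+2DG. The order of libraries resembled that of Gzmb, but the range was far smaller, so that the summed granzymes were 1.02 times Prf1 in MWA+2DG 1 and 7.53 times Prf1 in MWA+2DG 5. The group means were 11.2 ± 3.08 and 12.8 ± 3.88 FPKM (SD, n = 5 each).

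Nkg7, a granule membrane protein involved in granule release, was measured at 38.7, 27.1, 28.2, 36.4 and 37.8 FPKM in MWA and at 27.2, 29.4, 33.1, 45.4 and 54.6 FPKM in MWA+2DG. MWA+2DG 4 and MWA+2DG 5 lay above all MWA libraries, whereas the other 3 libraries of that group lay within their range. Ctsw, a cysteine protease of NK cells and CD8+ T cells, ranged from 24.3 to 36.6 FPKM in MWA and from 27.3 to 34.5 FPKM in MWA+2DG. Srgn, the serglycin core protein, which mast cells and myeloid cells also use, was measured at 121, 121, 123, 126 and 156 FPKM in MWA and at 112, 114, 119, 109 and 151 FPKM in MWA+2DG. Replicate 5 was the highest library of Srgn in both groups.

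Ccl5 and Ccl4 encode chemokines that attract T cells and monocytes. Ccl5 ranged from 82.8 to 122 FPKM in MWA and from 79.6 to 132 FPKM in MWA+2DG. Ccl4 was measured at 1.46, 1.04, 1.72, 5.95 and 2.14 FPKM in MWA and at 1.57, 0.605, 1.12, 1.38 and 10.9 FPKM in MWA+2DG. MWA+2DG 5 was the highest library of both genes, whereas MWA 4 was second in Ccl4 but not high in Ccl5, at 101 FPKM. The ratio of Ccl5 to Ccl4 ranged from 12.1 to 148.

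**Figure D3:**
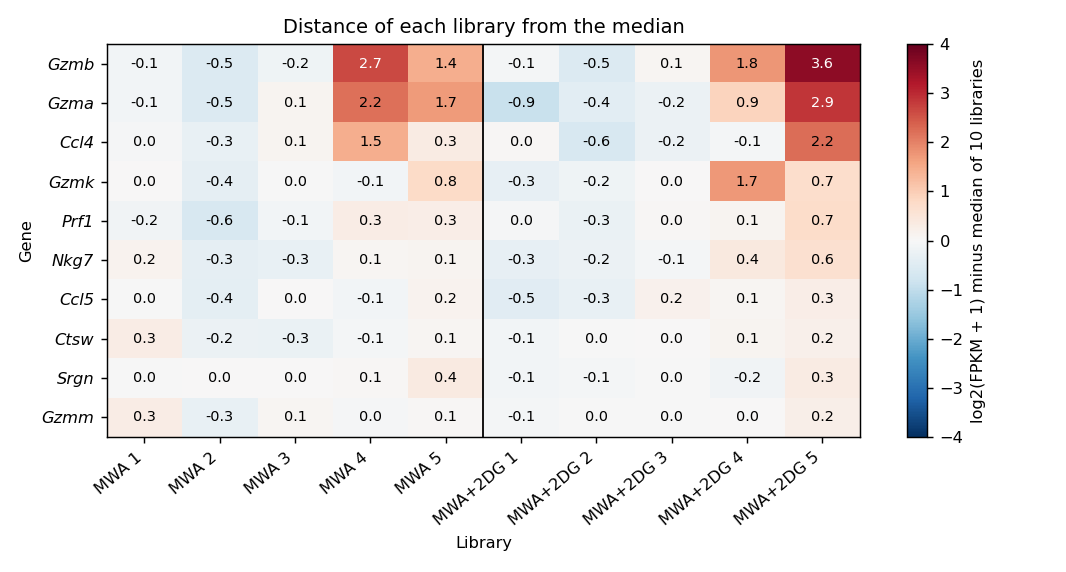
Difference of each library from the median of the 10 libraries in log2(FPKM + 1), with genes in rows, libraries in columns, red for higher and blue for lower. MWA+2DG 5 was above the median in all 10 members, and Gzmk was highest in MWA+2DG 4.

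MWA+2DG 5 was the highest library in 6 of the 10 members and among the 3 highest in 10 of 10. Over all tested genes it was the highest library in 8.9% and the lowest in 23.9%. MWA 5 was above the median in 10 of 10 members and among the 3 highest in 6. Over all tested genes MWA 5 was the highest library in 16.6% and the lowest in 29.1%, so it was often extreme in either direction. MWA 4 was among the 3 highest in 5 members and MWA+2DG 4 in 4. The shares of all tested genes among the 3 highest or above the median were not computed, so these counts only describe the members. At the other end, MWA 2 was the lowest library in 4 members, and MWA+2DG 1 and MWA+2DG 2 were each the lowest in 2. Over all tested genes these 3 libraries were lowest in 2.78%, 5.99% and 3.14%. Summed over the 10 members, the granule genes took 0.0838% to 0.176% of all FPKM of a library.

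The spread was compared with that of other genes as the SD of log2(FPKM + 1) over the 10 libraries. The median over the 13334 tested genes, those whose mean reached 1 FPKM, was 0.17. Gzmb had an SD of 1.46 and ranked in the top 0.525% of these genes, Gzma followed with 1.29 and the top 0.787%, Ccl4 with 0.89 and the top 2.20%, and Gzmk with 0.66 and the top 3.75%. Srgn and Gzmm, with SDs of 0.17 and 0.16, were near the middle.

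The treatment difference was tested with limma on log2(FPKM + 1) over all 13334 genes, with Benjamini-Hochberg adjustment. All 10 members passed the filter. No member had an adjusted p below 0.05, and the background was 0.0%, since no gene at all passed in limma. The smallest adjusted p of any gene was 0.995, while 567 genes had an unadjusted P below 0.05, none of them a member. By a looser rule of unadjusted P below 0.05 and a log2 difference beyond 0.25, 0.952% of genes were higher and 1.87% were lower in MWA+2DG, and again no member was called. The groups did not overlap in 0.802% of genes and in no member.

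Differences are given as MWA+2DG minus MWA in log2(FPKM + 1), which understates changes of low genes. Gzma differed by -0.23 (SE 0.74, 95% interval -1.87 to 1.40) and Gzmb by 0.31 (SE 0.84, 95% interval -1.55 to 2.16). Gzmk differed by 0.34 (SE 0.37, 95% interval -0.48 to 1.15) and Ccl4 by -0.05 (SE 0.51, 95% interval -1.19 to 1.08). For these 4 genes the intervals included a log2 difference of 1. The other members had narrower intervals. Prf1 differed by 0.18 (SE 0.21, 95% interval -0.29 to 0.64), Nkg7 by 0.13 (SE 0.19, 95% interval -0.29 to 0.56) and Ctsw by 0.09 (SE 0.12, 95% interval -0.17 to 0.35). Srgn differed by -0.10 (SE 0.11, 95% interval -0.34 to 0.13) and Ccl5 by 0.03 (SE 0.15, 95% interval -0.31 to 0.37).

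The Gzmm difference was -0.00049 (SE 0.11, 95% interval -0.24 to 0.23). In all, 6 members were above 0 and 4 below, with a median of 0.06, beside a median of 0.01 and 52.6% above 0 over all tested genes. The smallest two-sided exact permutation p of a member was 0.381 for Srgn, where 5 against 5 libraries allow 0.00794. When libraries were regrouped only within the 2 replicate sets, the smallest exact permutation p was 0.317, where 120 regroupings allow 0.0167.

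Within the sets, several members had opposite signs. In replicates 1 and 2, Gzma differed by -0.33, Nkg7 by -0.19, Ccl5 by -0.17, Ccl4 by -0.14, Ctsw by -0.081, Gzmk by -0.077, Gzmm by -0.058 and Gzmb by 0.0041. In replicates 3 to 5, Gzma differed by -0.17, Nkg7 by 0.35, Ccl5 by 0.17, Ccl4 by 0.0072, Ctsw by 0.20, Gzmk by 0.61, Gzmm by 0.038 and Gzmb by 0.51. Prf1 was above 0 in both sets, at 0.25 and 0.13, and Srgn was below 0 in both, at -0.10 and -0.11. Single libraries nonetheless set much of these sizes, since the Prf1 difference was 0.027 without MWA+2DG 5 and 0.035 without MWA 2, and that of Srgn was -0.036 without MWA 5 and -0.19 without MWA+2DG 5. The sign of the Gzmb difference rested on MWA+2DG 5, since it was -0.35 without that library. That of Gzma rested on MWA 4, MWA 5 or MWA+2DG 1, without which it was 0.15, 0.03 and 0.10. The Gzmk difference was -0.0032 without MWA+2DG 4, and that of Nkg7 was -0.0066 without MWA+2DG 5.

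**Figure D4:**
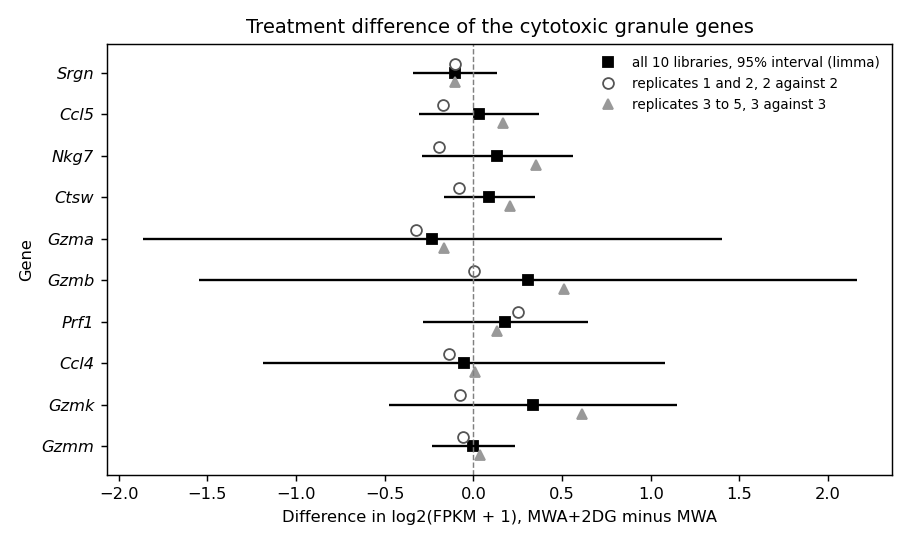
Difference between MWA+2DG and MWA in log2(FPKM + 1) for each member, with black squares and lines for the limma estimate and its 95% interval over 10 libraries, open circles for replicates 1 and 2 and grey triangles for replicates 3 to 5. All 10 intervals crossed 0, and those of Gzma and Gzmb were the widest, reaching from -1.87 to 1.40 and from -1.55 to 2.16.

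The members that varied most did so together. Over the 10 libraries, the values of Gzma and Gzmb correlated with r = 0.96 and rho = 0.78, and over the 6 libraries of replicates 3 to 5 with r = 0.95. Without the 2 libraries farthest from the Gzmb median r was 0.86. Gzmb and Prf1 gave r = 0.90 and rho = 0.96 over the 10 libraries, and r = 0.92 over the 6. Gzma and Gzmk gave only r = 0.51, and r = 0.16 over the 6, in which MWA 4 and MWA+2DG 4 took opposite places. Their rho over the 10 libraries was 0.68, and without the 2 libraries farthest from the Gzmk median r was 0.76. These correlations describe libraries that also share a replicate set, and no test was applied.

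Markers of the cells that carry granules were set beside the members. Ncr1, the NK cell receptor NKp46, was measured at 3.48, 4.25, 5.24, 10.2 and 8.67 FPKM in MWA and at 4.13, 4.48, 3.22, 5.87 and 13.8 FPKM in MWA+2DG. The 4 libraries with high Gzma and Gzmb were also the 4 highest in Ncr1. Gzma and Ncr1 correlated with r = 0.95 and rho = 0.82 over 10 libraries, with r = 0.98 over replicates 3 to 5 and with r = 0.85 without the 2 libraries farthest from the Ncr1 median. Of the 6 NK cell markers listed, 5 were found, and their summed level ranged from 12.7 to 24.9 FPKM in MWA and from 12.5 to 30.5 FPKM in MWA+2DG, with MWA+2DG 5, MWA 4, MWA 5 and MWA+2DG 4 in the first 4 places. None of the 5 was at 0 in any library, but only 2 of them, Ncr1 and Klrd1, reached a mean of 1 FPKM. Klrb1c, Klre1 and Klri2 lay at 0.147 to 1.65 FPKM and count equally in the mean log2 level used below.

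The CD8 T cell markers had another pattern. Cd8a and Cd8b1 summed to 59.2 to 98.1 FPKM in MWA and to 83.6 to 92.0 FPKM in MWA+2DG, and the highest library was MWA 1, which was low in granzymes. Gzma and Cd8a gave r = -0.12 over 10 libraries and r = 0.10 over replicates 3 to 5. Cd8a itself averaged 30.8 ± 5.69 FPKM in MWA and 37.3 ± 1.38 FPKM in MWA+2DG (SD, n = 5 each). This log2 difference of 0.28 met the looser rule and had a limma adjusted p of 0.995, with a two-sided exact permutation p of 0.0556. Cd8b1 differed by 0.17 and did not meet the rule. The exact permutation p of the summed pair was 0.119. Ctsw was the member closest to Cd8a, with r = 0.62, but r was only 0.06 without the 2 libraries farthest from the Cd8a median. Hepatocyte markers summed to 59.2 to 163 FPKM in all of replicates 3 to 5, including MWA 3 and MWA+2DG 3, in which Gzma was 12.3 and 9.49 FPKM. Gzma and Alb gave r = 0.74 and rho = 0.75 over 10 libraries, where replicates 1 and 2 were low in both, and r = 0.51 over replicates 3 to 5.

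Other cells that could carry Srgn, Ccl4 or Gzmm were checked in the same way. Macrophage markers summed to 115 to 211 FPKM and were highest in MWA 5, the highest library of Srgn, while MWA+2DG 5 lay at 155 FPKM. Mast cell and basophil markers, which Srgn could follow, summed to 20.04 to 42.5 FPKM in replicates 1 and 2 and to 6.91 to 13.9 FPKM in replicates 3 to 5. Neutrophil markers summed to 91.5 FPKM in MWA 1 and to 10.8 to 17.5 FPKM in the other MWA libraries. In MWA+2DG they summed to 1.38 to 15.5 FPKM, with an unadjusted two-sided exact permutation p of 0.0317 between groups. S100a9 and S100a8 among them had log2 differences of -1.61 and -1.43 and met the looser rule. So did Csf1r (macrophages, -0.30) and Mzb1 (plasma cells, -0.50). Of all markers listed, only Cd8a was higher by that rule, and the limma adjusted p of each was 0.995. Gamma-delta and innate-like T cell markers summed to 4.80 to 8.43 FPKM. The part of these cells in the members' levels was not tested.

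**Figure D5:**
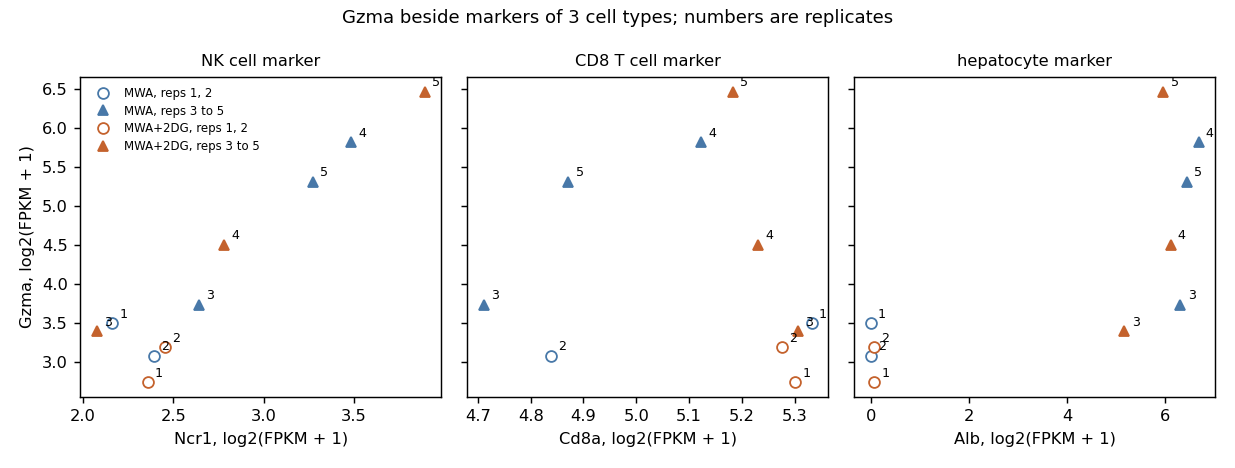
Gzma beside Ncr1, Cd8a and Alb in each library, all as log2(FPKM + 1), with colors for the groups, open circles for replicates 1 and 2, triangles for replicates 3 to 5 and the replicate number beside each point. Gzma rose along Ncr1 (r = 0.95) and not along Cd8a (r = -0.12), whereas Alb split the libraries into the 2 sets.

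Members were then expressed relative to the mean log2 level of the NK cell or the CD8 T cell markers, which gave 20 comparisons. Relative to the NK cell markers the SD of Gzma over the libraries was 0.97 instead of 1.29 and that of Prf1 was 0.18 instead of 0.37. The SD also fell for Gzmb, Gzmk, Nkg7 and Ccl4, but it rose for the members that varied little, to 0.31 from 0.16 for Gzmm, 0.32 from 0.19 for Ctsw, 0.23 from 0.17 for Srgn and 0.30 from 0.25 for Ccl5. Relative to the CD8 T cell markers the SD was 1.31 for Gzma and 0.38 for Prf1, and it fell for Ctsw to 0.14, for Nkg7 to 0.31 from 0.33 and slightly for Gzmb and Gzmk. The only comparison with an unadjusted p below 0.05 was Prf1 relative to the NK cell markers, which was 1.89 ± 0.17 in MWA and 2.11 ± 0.12 in MWA+2DG (SD, n = 5 each), a log2 difference of 0.23. Its two-sided exact permutation p was 0.0159 unadjusted, 0.0333 within the replicate sets and 0.317 when adjusted over the 20, so that it did not pass. With a pseudocount of 0.1 the exact permutation p was 0.103, and without MWA+2DG 3 it was 0.0556.

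Of the other genes of the pathway, none was called by the looser rule. Among other granzymes, 3 of the 6 listed were found and 1 was tested. This was Gzmc, at 1.36 ± 0.66 FPKM in MWA and 1.22 ± 0.56 FPKM in MWA+2DG (SD, n = 5 each). Gzmd and Gzmf did not exceed 0.249 FPKM in any library. Of 10 genes of granule sorting, processing and inhibition, 9 were tested, and the 2 of smallest P were Lamp1, a granule membrane protein (log2 difference -0.05), and Serpinb9, the inhibitor of granzyme B (0.08). Of 8 genes of granule release, 7 were found and tested. Unc13d, the priming factor Munc13-4, differed by 0.16, and Lyst, which controls granule size, also by 0.16.

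Among 7 death ligands, cytokines and chemokines, 6 were tested and 1 had an unadjusted P below 0.05. This was Lta, encoding lymphotoxin alpha, which averaged 23.4 ± 1.53 FPKM in MWA and 19.7 ± 2.51 FPKM in MWA+2DG (SD, n = 5 each), a log2 difference of -0.24 with a limma adjusted p of 0.995. Xcl1 differed by -0.27. Of 6 receptors 4 were tested, and Ccr1 and Klrg1 differed by -0.22 and -0.13. Of 8 transcription factors 7 were tested, and Prdm1, encoding Blimp-1, differed by -0.21 and Bhlhe40 by -0.08. The limma adjusted p of all these genes was 0.995.

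The tested genes most like the members were taken by r over the 10 libraries, with no claim of shared function or control. Closest to the mean of the members were Hook2 (r = 0.94), Ly6d (0.93), Hspb1 (0.92), H2-K1 (0.92), Wfdc21 (0.92), Gm20900 (0.92), Bak1 (0.91), Plac8 (0.90), H2-T10 (0.90) and H2-T22 (0.90). In all 10 the highest library was MWA+2DG 5, where the mean of the members also peaked, so the choice by r favored this. Over the 6 libraries of replicates 3 to 5, which were part of that choice, their r ranged from 0.86 to 0.97. H2-K1, a classical class I molecule that presents peptides to CD8+ T cells, ranged from 247 to 487 FPKM.

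For single members, Gzma was closest to Plac8 (r = 0.98), which ranged from 23.2 to 278 FPKM, and to Gm36161 (0.97). Gzmb was closest to Klra3 (0.97), a Ly49 receptor of NK cells, and to Ly6c1 (0.95). Ccl4 was closest to Fgl2 (0.99) and Il1rn (0.98), and its r with Ifng, the gene of interferon gamma, was also 0.98. Ifng lay below the filter, and without the 2 libraries farthest from its median the r with Ccl4 was 0.74. Gzmk was closest to Cxcr3 (0.91), the chemokine receptor of effector and memory T cells, and to Pgm1 (0.89), and MWA+2DG 4 was the highest library of both. Without the 2 libraries farthest from the Gzmk median, the r of Cxcr3 was 0.56.

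Prf1 was closest to Litaf (r = 0.91) and Klrd1 (0.90), an NK cell receptor chain. Nkg7 was closest to Hook2 (0.95) and Hspb1 (0.92), Ctsw to Tlr12 (0.92) and Nat2 (0.92), and Srgn to Tspo (0.93) and Lst1 (0.91). Without the 2 libraries farthest from the Srgn median, the r of Tspo was 0.50 and that of Lst1 was 0.77. Ccl5 was closest to Gm11605 (0.95) and Gm6863 (0.94), and Gzmm to the pseudogene Rps13-ps2 (0.87) and Mfsd2a (0.83).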

How the data were processed

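RNA-seq libraries of 10 lymph nodes, 5 per group by the titles and treatment labels, were analysed. The labels describe poly(A) selection, strand marking with dUTP, molecular identifiers in the adapters and paired reads. Per the submitters' processing notes, reads were trimmed with cutadapt 1.9, mapped with HISAT2 2.0.4 to mm9, handled with UMI-tools and assembled with StringTie 1.3.4d, whereas the methods name fastp. The gene annotation was not given in the sources used here. The authors deposited 1 table of FPKM per library, normalized for transcript length and mapped reads. Read counts and depth are unknown, so no counting interval was given. Whole reads were not recovered, since the smallest value above 0 was 1e-06. No column of the authors' own comparisons was used.

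Of 33643 identifiers, 33541 had a symbol, and identifiers that shared a symbol were summed, which left 33585 genes. The 13334 genes whose mean reached 1 FPKM were tested with limma 3.58.1 in R 4.3.3 on log2(FPKM + 1), all 10 libraries, no covariate, P-values adjusted by Benjamini-Hochberg. In a simulation of this comparison with 13334 genes, 174 of 200 genes changed by a log2 difference of 1 were called, and 7 unchanged genes. The noise was drawn independently for each gene, without the 2 replicate sets, and the changed genes were drawn from all 13334. The rate thus does not hold for members of wide spread such as Gzma and Gzmb, whose SEs were 0.74 and 0.84. Single values were tested with two-sided exact permutation tests. The labels do not say that each library came from a separate mouse, and P-values measure only the spread between these samples.

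Named genes were all members, the 2 genes of smallest limma P in each pathway list, and the genes of highest r (10 for the mean of the members' standardized values, 2 for each member). The members and the lists were chosen with earlier results of these data known. Alternatives covered the pseudocount, filters, scaling, limma-trend, library weights, a replicate block, a replicate set term and leaving out each library. The 2 replicate sets analysed separately, and the Gzma share, were added after seeing the data.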

Additional observations from a re-analysis of the deposited data

Results flagged for a closer look

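Single libraries stood far from the other 4 of their group, with a gap over Dixon's critical value for 5 samples of 0.71, in 7 of the 42 groups of 5 checked, all of them member genes (20 such groups). Chance flags about 1 in 20 groups only where values are independent and normally spread. The gaps were taken on FPKM rather than its log2, and the flagged members shared libraries. The flags were therefore not set against that rate. In MWA+2DG 5, Gzma at 87.6 FPKM, Gzmb at 54.2 FPKM, Srgn at 150.9 FPKM and Ccl4 at 10.9 FPKM stood above the rest of their group. In MWA 5, Gzmk at 2.84 FPKM and Srgn at 156.1 FPKM stood above the rest of theirs. In MWA 4, Ccl4 stood out at 5.95 FPKM. The NK cell markers summed to 30.5, 23.6 and 24.9 FPKM in these 3 libraries, and Alb was listed at 61.5, 85.8 and 102 FPKM, and the part of either in the high values was not tested.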

How the results depend on the processing

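No member was called by the looser rule or by an adjusted p under any alternative, and of the recomputed differences of single members 187 kept their direction and 29 did not. The replicate numbers were not taken as pairs. To judge this, each gene's group mean was subtracted, and the deviations of same-numbered libraries were correlated over genes. These correlations of deviations were 0.331, 0.501, 0.110, 0.0334 and 0.151, and 3 of 10 libraries correlated best with their own number. With the replicate block the SE fell from 0.74 to 0.33 for Gzma and from 0.84 to 0.39 for Gzmb. For Prf1 the SE fell from 0.211 to 0.105, with an unadjusted limma P of 0.135. It hardly changed for Gzmm and Ctsw, at 0.104 and 0.113. With this block the looser rule called 449 genes in place of 376, and 0 members. It called 230 with a filter of 5 FPKM, 689 in replicates 1 and 2 alone and 283 to 512 with single libraries left out. The number with an adjusted p below 0.05 was 0, or 1 without MWA replicate 2. Among called genes 33.8% were higher in MWA+2DG, but 67.4% after rescaling to a total of 1000000, 45.1% with library weights, 55.8% without MWA+2DG replicate 5 and 56.3% in replicates 1 and 2.

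With single libraries left out, the log2 difference ranged from -0.83 to 0.15 for Gzma, -0.35 to 0.81 for Gzmb, -0.0032 to 0.51 for Gzmk, -0.078 to 0.068 for Gzmm, -0.0066 to 0.24 for Nkg7, -0.051 to 0.14 for Ccl5, -0.55 to 0.24 for Ccl4, 0.027 to 0.27 for Prf1, 0.033 to 0.18 for Ctsw and -0.19 to -0.036 for Srgn. Gzmm turned to 0.0064 with a pseudocount of 0.1, 0.058 after rescaling and 0.038 in replicates 3 to 5, where Ccl4 turned to 0.0072. In replicates 1 and 2, Nkg7, Ctsw and Ccl5 turned to -0.19, -0.081 and -0.17. The cause was not tested. Of the 20 levels relative to markers, 1 had an unadjusted p below 0.05, against 0 with a pseudocount of 0.1 and 0 to 3 with single libraries left out (3 without MWA replicate 1 or MWA+2DG replicate 5, 0 without MWA+2DG replicate 3). The Gzma share difference ranged from -11.2 to -7.53 points with single libraries left out, and was -5.76 in replicates 1 and 2 and -11.8 in replicates 3 to 5, where the designs allow no p below 0.05. Gzmk, Gzmm and Ccl4 fell below the filter of 5 FPKM, and Gzmk below the filter in replicates 1 and 2, so they were not tested there. Depth is unknown.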
